A study of Mus musculus with 6 samples.

Results

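The selenium-binding and selenoprotein genes described here are 10 genes of the 55421 in the deposited expression table of mouse tongue epithelium. They are Selenbp1 and Selenbp2 (selenium-binding proteins), the selenoproteins Selenop, Selenow and Selenof, the glutathione peroxidases Gpx1, Gpx2, Gpx3 and Gpx4, and the methionine sulfoxide reductase Msrb1. They were taken by symbol, and the set was chosen from results of this same comparison, with the level of Selenbp1 in the 2 genotypes already known. Their values are therefore a description. Where the text says whether one of them was among the genes called in a fit over all genes, that is also a description, since the same values chose the set, and it supports nothing.

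Messenger RNA was counted in the peeled tongue epithelium of 6 mice, described as littermates, with QuantSeq, in which each transcript yields a read from its 3' end (a tag). The 3 mice called WT had floxed alleles of Ire1α (IRE1F/F) and no Cre, and the 3 called KO also carried a tamoxifen-inducible Cre (K14CreERT2 IRE1 F/F). Ire1α, encoded by Ern1, is a sensor of misfolded protein in the endoplasmic reticulum, and the study asked what its loss does to the renewing epithelium. All mice, WT included, received tamoxifen by intraperitoneal injection on 4 days in succession and were killed on day 5. The epithelium was peeled after 10 min in neutral protease and collagenase at 37 °C. The keratin 14 promoter drives Cre in basal keratinocytes, whereas the RNA came from the whole sheet. The age and sex of the mice are not in the labels used here. In such bulk RNA, fewer cells of a type and less RNA per cell cannot be told apart.

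Selenoproteins carry selenium as selenocysteine, an amino acid encoded by UGA, which elsewhere stops translation. A hairpin in the 3' untranslated region, its binding protein Secisbp2, the elongation factor Eefsec and a dedicated transfer RNA allow UGA to be read, and many of the resulting enzymes reduce peroxides, disulfides or oxidised methionine at that residue. Selenbp1 and Selenbp2 are a different kind of protein: they bind selenium but have no selenocysteine. Selenbp1 is a methanethiol oxidase, found in many epithelia.

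The windows below show what sets the selenoproteins apart. Each holds the selenocysteine codon, TGA in DNA letters, in capitals, with the 15 coding bases on either side, on the strand of the transcript in the GENCODE M21 annotation (build GRCm38). Numbering follows a single coding transcript per gene, that with the most selenocysteine codons and then the longest coding sequence. The codon numbers hold for that transcript only. In Selenop the first of 10 such codons is shown, codon 59 of 380, and the other 9 lie between codons 259 and 377.
Gpx1, codon 47 of 201 at chr9:108339451-108339453: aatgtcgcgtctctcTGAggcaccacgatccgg
Gpx2, codon 40 of 190 at chr12:76795256-76795258: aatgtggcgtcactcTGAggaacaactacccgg
Gpx3, codon 73 of 226 at chr11:54907256-54907258: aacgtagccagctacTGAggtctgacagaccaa
Gpx4, codon 129 of 253 at chr10:80054737-80054739: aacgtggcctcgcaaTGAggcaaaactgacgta
Msrb1, codon 95 of 116 at chr17:24740158-24740160: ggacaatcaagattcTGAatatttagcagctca
Selenow, codon 13 of 88 at chr7:15920464-15920466: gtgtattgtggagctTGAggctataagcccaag
Selenof, codon 93 of 162 at chr3:144590645-144590647: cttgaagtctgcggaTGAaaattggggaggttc
Selenop, codon 59 of 380 at chr15:3274848-3274850: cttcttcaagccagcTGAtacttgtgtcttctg

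Selenbp1 and Selenbp2 have 472 coding codons each and 0 in-frame TGA codons before the stop. Both genes lie on the plus strand of chromosome 3, Selenbp1 at chr3:94933056-94944758 and Selenbp2 at chr3:94693556-94704413. Their coding sequences are identical at 1398 of 1416 bases (98.7%). The last 60 coding bases, close to where a 3' tag falls, differ at 1 base, which is in capitals.
Selenbp1, chr3:94944506-94944565: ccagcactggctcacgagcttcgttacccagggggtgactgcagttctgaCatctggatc
Selenbp2, chr3:94704154-94704213: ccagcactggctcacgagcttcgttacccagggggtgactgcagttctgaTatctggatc

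The libraries held 4606309 to 6286153 reads. Values are the authors' normalised read counts, in which 1 read was worth 0.862 to 1.31, so that a listed 0 is compatible with a true level of 3 reads, which is 2.59 to 3.92 normalised reads (counting error only). The targeted gene, Ern1, had 102, 105 and 77.1 normalised reads in the WT mice (replicates 1 to 3, in this order throughout) and 78.0, 117 and 123 in the KO mice, a log2 difference of 0.15 ± 0.24 (SE; limma adjusted p = 0.847), but a tag at the 3' end does not check a deletion elsewhere in the gene. Suprabasal keratinocyte markers such as Krt13 and Krt4 summed to 484892 to 716003 in all 6 libraries, with Sbsn listed at 0. Over all genes tested (a normalised count of at least 10 in at least 3 libraries), limma called 198 of 10987 at an adjusted p of 0.05, which is 1.8%. Of these, 134 were higher in KO and 64 lower, the latter being 0.583% of those tested.

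Of the 10 genes, 5 were high enough to enter the fit (Selenbp1, Gpx1, Msrb1, Selenow and Selenof) and 5 were not (Selenbp2, Selenop, Gpx2, Gpx3 and Gpx4). Among the 5 tested, 1 was called, Selenbp1, lower in KO, and 4 were not. Groups did not overlap for 1 of the 5, against 19.1% of all genes tested. Selenbp1 is the gene that brought the set together, so nothing is read from these counts. Because the kit gives a tag per transcript, counts were not divided by length. On that scale Gpx1 was by far the most abundant of the 10 in every library, followed by Selenbp1, Msrb1, Selenow and Selenof, in an order that changed among libraries, while the other 5 had no more than 17.3 normalised reads in any library. Neighbours in that order were not all apart: in KO the SDs of Selenbp1 and Selenow overlapped, and in WT those of Selenbp1 and Msrb1 did.

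**Figure D1:**
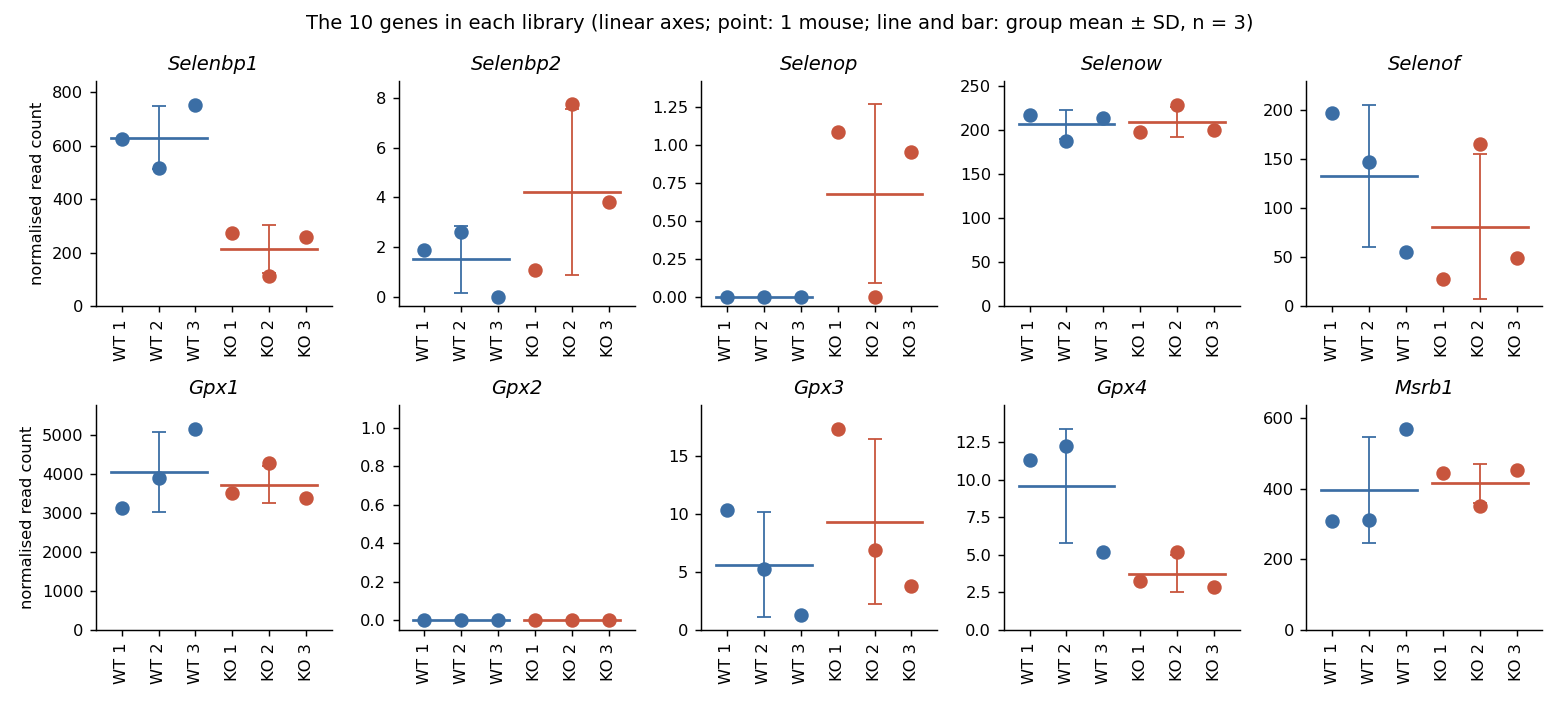
Normalised read count (linear vertical axis, a different range for each gene) of the 10 genes in WT (blue) and KO (red) libraries, 1 point per mouse, with the mean ± SD of each group (n = 3). The 3 KO values of Selenbp1 (113 to 275) lie below its 3 WT values (517 to 752), the groups overlap for Selenow, Selenof, Gpx1 and Msrb1, and Gpx2 is listed at 0 throughout.

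Selenbp1 had 624, 517 and 752 normalised reads in WT and 275, 113 and 258 in KO. Every KO mouse was below every WT mouse, and KO replicate 2 was the lowest of the 6. The means were 631 ± 118 in WT and 215 ± 89.2 in KO (SD, n = 3), a 2.93-fold lower level in KO. On the log2(value + 1) scale, which slightly understates differences of low genes, the fitted difference was −1.63 ± 0.31 (SE). In the authors' deposited table, which lists 341 called genes, Selenbp1 is the 1 listed gene of the 10, with a log2 fold change of −1.55 and a standard error of 0.298.

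Selenbp1 was called in some of the 18 alternative fits and not in others. It was lower in KO in all of them, which supports nothing, since the same values chose the set. Leaving out 1 library could not change the sign, because every KO value lay below every WT value. With 1 library left out the log2 difference lay between −1.86 and −1.22. The gene was called without KO replicate 1 or KO replicate 2, and was not called without WT replicate 1, 2 or 3 or KO replicate 3. The library names in the labels come in 2 styles, numbers (WT replicates 1 and 2, KO replicate 1) and letters (WT replicate 3, KO replicates 2 and 3), whose meaning is not stated. Within the numbered libraries the log2 difference was −1.04 and within the lettered ones −2.13, and with the style as a covariate the call was lost.

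Selenbp2, the near copy of Selenbp1, had 1.88, 2.62 and 0 normalised reads in WT and 1.08, 7.76 and 3.81 in KO. That is 5 reads in all WT libraries and 14 in all KO libraries, with overlapping groups and too few reads for a test. Of the 451 windows of 50 bases in the last 500 bases of the Selenbp1 transcript, 215 (47.7%) also occur in Selenbp2, so a share of tags could be placed on either gene or dropped, depending on how the authors counted. How far that touches the values was not tested. As listed, Selenbp1 had 1831 reads over the WT libraries and 656 over the KO libraries.

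The tested genes whose levels over the 6 libraries were most like that of Selenbp1 were Dcn (Pearson's r = 0.998 of log2 values), Tmem45a2 (0.997) and Oxct1 (0.990), out of 6640 genes compared. Both groups enter these values, so the difference between genotypes is part of the likeness. Dcn, which encodes the matrix proteoglycan decorin, had 1658, 1329 and 1856 normalised reads in WT and 530, 195 and 544 in KO, again lowest in KO replicate 2. Tmem45a2 stood at 878, 790 and 1104 in WT and at 521, 304 and 508 in KO. For Oxct1, a mitochondrial enzyme of ketone body use, the WT values were 1338, 1250 and 1527 and the KO values 1014, 634 and 862. The log2 differences were −2.06 ± 0.35 for Dcn, −1.08 ± 0.23 for Tmem45a2 and −0.73 ± 0.20 for Oxct1 (SE), given with no test because the genes were chosen for following Selenbp1.

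Dcn is also a fibroblast marker, and the 8 fibroblast markers summed to 1428 to 1968 in WT and 252 to 1142 in KO. Dcn made up most of that sum except in KO replicate 1. The collagens did not follow Selenbp1: Col1a1 had 9.42, 12.2 and 10.4 normalised reads in WT and 190, 3.45 and 14.3 in KO, highest in KO replicate 1, while Dpt was listed at 0. The 7 basal keratinocyte markers summed to 25654 to 27832 in WT and 36389 to 63175 in KO, a sum carried by Krt14 and Krt5. Of the 7, limma called 1 (Itgb4, higher in KO), edgeR called 1 and DESeq2 called 5. These tools called 1.8%, 1.73% and 3.35% of all genes. Groups did not overlap for 6 of the 7, against 19.1% of all genes tested. The log2 difference was positive for 5 and negative for 2, so the list did not move as one. Trp63, a transcription factor of basal cells, had 694, 791 and 599 normalised reads in WT and 394, 469 and 531 in KO, so that its KO values were all below its WT values. Krt15 had a pattern like that of Selenbp1 (r = 0.962, rank 27), at 4815, 5183 and 6177 in WT and 3803, 1183 and 2563 in KO. The 9 hard keratins of filiform papillae summed to 46321 to 73805 in WT and 82623 to 96016 in KO, also apart. Krt36 and Krt81 carried most of that sum. Groups did not overlap for 4 of the 9, against 19.1% of all genes tested. Limma called 1 (Krt33b, higher in KO), edgeR 0 and DESeq2 3, against the shares of all genes given above. The log2 difference was positive for all 9. Whether a change in the make-up of the sheet contributes to the Selenbp1 difference was not tested.

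**Figure D2:**
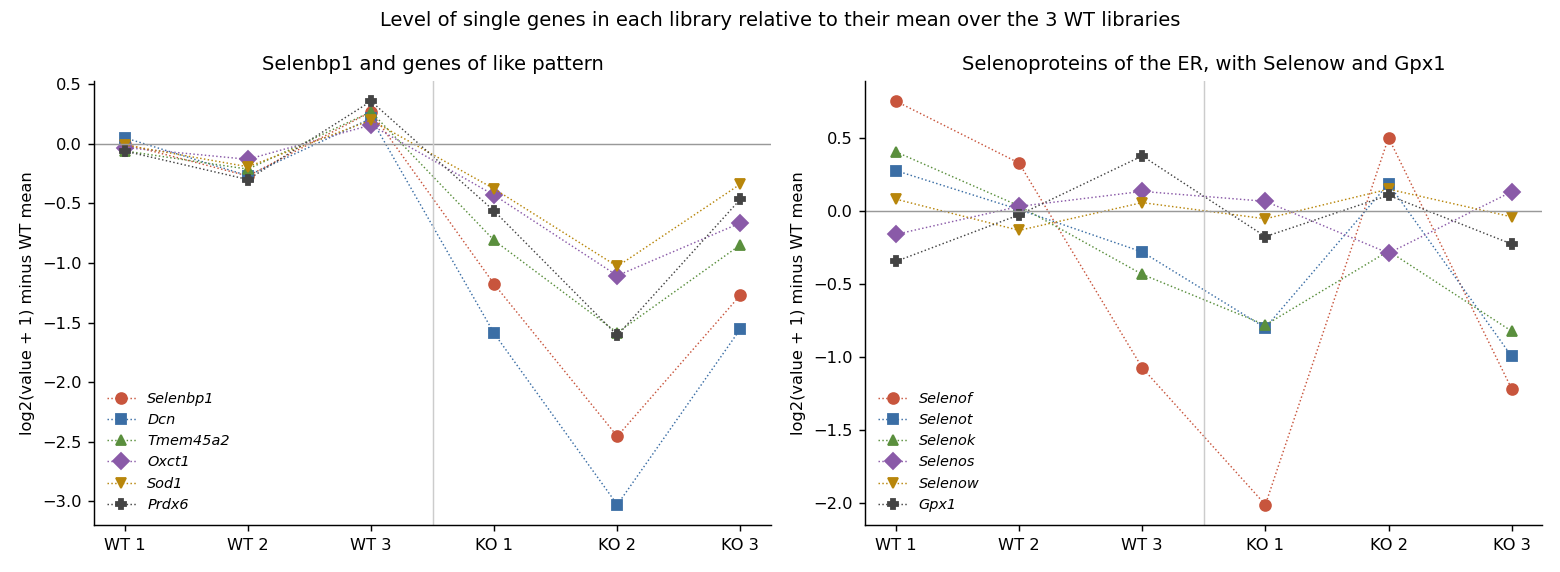
Level of single genes in each library as log2(value + 1) minus the mean of the 3 WT libraries (dotted lines only link the points of a gene). On the left, Selenbp1 and 5 genes chosen for following it are lowest in KO replicate 2 (Selenbp1 at −2.46), which the choice makes likely. Dcn, Tmem45a2 and Oxct1 ranked 1 to 3 in likeness. Sod1 and Prdx6, from the list of glutathione and thioredoxin partners, ranked 18 and 29. On the right, Selenof and Selenot are high in WT replicate 1 and KO replicate 2 and low in KO replicates 1 and 3. Selenow stays close to 0.

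Glutathione peroxidases reduce hydrogen peroxide or lipid peroxides, most of them with glutathione. Gpx1, the cytosolic enzyme (gene at chr9:108338903-108340343, plus strand), had 3127, 3901 and 5159 normalised reads in WT and 3518, 4279 and 3395 in KO, or 0.0561% to 0.0858% of all reads. Its lowest and highest values were both in WT. The group means were 4062 ± 1025 and 3731 ± 479 (SD, n = 3), and the log2 difference of −0.10 ± 0.22 (SE) was smaller than its error. The SD within WT exceeded the distance between the groups.

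Gpx2, known as the glutathione peroxidase of gut epithelium, was listed at 0 in all 6 libraries. The gene (chr12:76792333-76795554, minus strand) lies wholly inside Fntb on the opposite strand, over 3222 bases, and Fntb itself had 251 to 333 normalised reads. Of the 451 windows at the 3' end of Gpx2, 91 (20.2%) also occur in Gpx2-ps1 on the same strand, itself listed at 0 in all 6 libraries. Whether reads of Gpx2 were lost to the overlap or to the shared windows was not tested. Gpx3, the secreted plasma form (chr11:54902453-54910377, plus strand), had 10.4, 5.24 and 1.31 normalised reads in WT and 17.3, 6.89 and 3.81 in KO, from 18 and 28 reads in all. The groups overlapped, with KO replicate 1 highest and WT replicate 3 lowest, and no test was made at this depth.

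Gpx4, which reduces lipid peroxides inside membranes and holds off ferroptosis (chr10:80047166-80056439, plus strand), was listed at only 11.3, 12.2 and 5.22 normalised reads in WT and 3.25, 5.17 and 2.86 in KO. Those values rest on 12, 14 and 4 reads in WT and 3, 6 and 3 in KO. The groups do not overlap, but the lowest WT and highest KO values (5.22 and 5.17) differ by less than 1 read is worth. The gene was under the filter, and in the fit without a filter its log2 difference was −1.11 ± 0.60 (SE). Of its 451 windows at the 3' end, 401 (88.9%) also occur in the pseudogene Gpx4-ps2 on the same strand, which was listed higher than Gpx4 in every library, at 37.7, 35.8 and 31.3 in WT and 26.0, 21.5 and 15.2 in KO. The level of Gpx4 is therefore uncertain, and neither the share of its tags placed elsewhere nor its part in the difference was tested.

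Msrb1 is a selenoprotein that reduces one form of oxidised methionine, including in actin (chr17:24736642-24742778, plus strand). Its normalised counts were 309, 311 and 569 in WT and 443, 352 and 453 in KO. WT replicate 3 was the highest of the 6 and the other WT mice the lowest, so the KO values lay inside the WT range. The means were 396 ± 150 and 416 ± 55.3 (SD, n = 3), with a log2 difference of 0.12 ± 0.25 (SE). The sign depended on the libraries compared: −0.51 within the lettered and 0.51 within the numbered ones.

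Selenow, a small cytosolic selenoprotein of the thioredoxin-fold kind (chr7:15917208-15922402, minus strand), was the steadiest of the tested genes. It had 218, 188 and 214 normalised reads in WT and 198, 228 and 200 in KO. The highest library was 1.22 times the lowest, and the means were 206 ± 16.5 and 209 ± 16.9 (SD, n = 3). The log2 difference was 0.02 ± 0.17 (SE), and it was −0.03 within the numbered libraries and closer still to 0 within the lettered ones.

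Selenof sits in the endoplasmic reticulum bound to UGGT, the enzyme that checks the folding of glycoproteins (chr3:144570304-144597680, plus strand). It was the most variable of the tested genes within a genotype, at 197, 147 and 54.9 normalised reads in WT and 28.2, 165 and 49.6 in KO. WT replicates 1 and 2 and KO replicate 2 were high, the other 3 libraries were low, and the highest was 6.99 times the lowest. The means of 133 ± 72.1 and 81.1 ± 73.9 (SD, n = 3) gave a log2 difference of −0.91 ± 0.60 (SE). The difference was −2.55 within the numbered libraries and 0.72 within the lettered ones, so its direction was not common to both.

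Other genes were high and low in the same libraries as Selenof; they were picked after their values were seen. Krt10, a suprabasal keratin, had 15655, 7995 and 2744 normalised reads in WT and 2738, 6645 and 2435 in KO. Txn1, the cytosolic thioredoxin, had 2613, 2031 and 1083 in WT and 1127, 3081 and 1106 in KO. In both, as in Selenof, the 3 highest libraries were WT replicates 1 and 2 and KO replicate 2. What separates these libraries was not tested.

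Selenop, the plasma protein that carries selenium from liver to other tissues (chr15:3268547-3280508, plus strand), was listed at 0 in the WT libraries and at 1.08, 0 and 0.953 in KO, 1 read each in 2 libraries. Both groups are under the limit of 3 reads, so no fold is given. Its end overlaps Ccdc152 on the opposite strand by 439 bases, and 389 of 451 windows (86.3%) are shared. Ccdc152 had 2.83 normalised reads in WT replicate 1 and was at 0 elsewhere. Of the receptors that take up the protein, Lrp8 was tested and not called, at a log2 difference of −0.09 (limma adjusted p = 0.940), and Lrp2 was too low to test.

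Of the 16 other selenoprotein genes of the mouse, 9 were tested. By limma, edgeR and DESeq2, 0 of the 9 were called, where these tools called 1.8%, 1.73% and 3.35% of all genes. An unadjusted limma p under 0.05 was found for 2 of the 9, against 1485 of all 10987 genes tested. The median log2 difference of the 9 was −0.01, as was that of all genes tested, and they ranged from −0.63 to 0.80. The 3 with the smallest p were Selenok, Txnrd3 and Selenot. Selenok, a membrane protein of the endoplasmic reticulum, had 617, 477 and 345 normalised reads in WT and 271, 385 and 263 in KO, a log2 difference of −0.63 ± 0.24 (limma adjusted p = 0.270). Only KO replicate 2 reached into the WT range. Selenot, another endoplasmic reticulum protein, stood at 275, 229 and 187 in WT and at 130, 259 and 113 in KO, a log2 difference of −0.54 ± 0.30 (limma adjusted p = 0.477). As for Selenof, KO replicate 2 was high and KO replicates 1 and 3 were low.

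Txnrd3, a thioredoxin and glutathione reductase best known from testis, had 28.3, 33.2 and 26.1 normalised reads in WT and 74.8, 56.0 and 32.4 in KO, a log2 difference of 0.80 ± 0.32 (limma adjusted p = 0.296). WT replicate 2 lay above KO replicate 3. Txnrd1, the cytosolic thioredoxin reductase and the most abundant of the 16, averaged 812 ± 134 in WT and 941 ± 91.4 in KO (SD, n = 3). Selenos, of the degradation machinery of the endoplasmic reticulum, averaged 471 ± 48.1 and 463 ± 69.5 and did not share the pattern of Selenof. Dio3 and Selenoh were listed at 0 in every library.

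**Figure D3:**
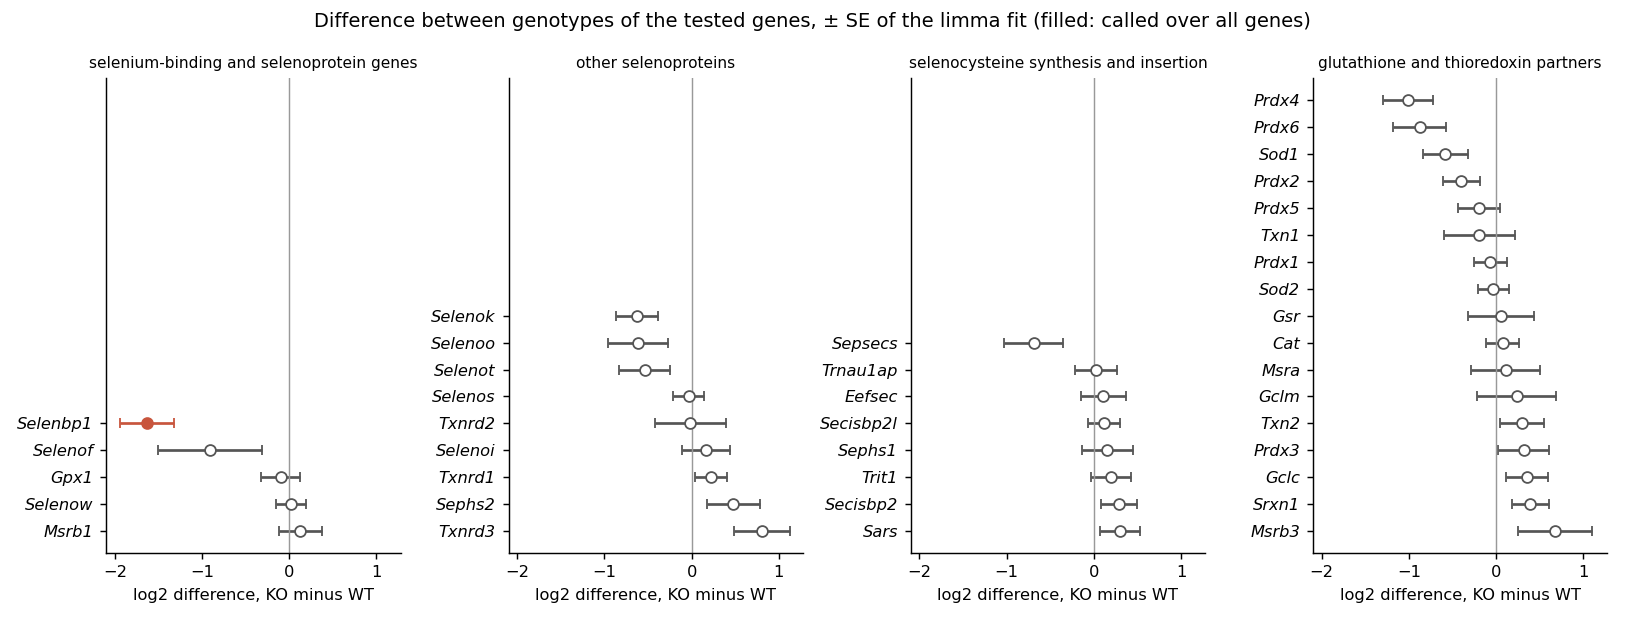
Fitted log2 difference (KO minus WT, horizontal axis) ± SE of each tested gene in the set and in the 3 lists on selenoproteins, selenocysteine and redox partners, from 3 WT and 3 KO mice. Selenbp1 (filled, −1.63) is the 1 called gene shown; the other selenoproteins spread on both sides of 0, from −0.63 to 0.80.

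Of the 10 listed genes that make and insert selenocysteine, 8 were tested and 0 were called by limma, edgeR or DESeq2. With 1.8%, 1.73% and 3.35% of all genes called by these tools, a count of 0 among 8 is near the background. None, 0 of 8, had an unadjusted limma p under 0.05, against 1485 of all 10987 genes tested. The median log2 difference of the 8 was 0.14. Sepsecs, which makes selenocysteine on its transfer RNA, had the smallest p, with 25.4, 31.4 and 26.1 normalised reads in WT and 13.0, 25.0 and 14.3 in KO, a log2 difference of −0.69 ± 0.34 (limma adjusted p = 0.419). Its KO values were all below its WT values, with KO replicate 2 close to them. Groups did not overlap for 3 of the 8, against 19.1% of all genes tested, and nothing particular to the list is read from this count. The other non-overlapping genes, Secisbp2 and Secisbp2l, were higher in KO. The log2 difference was positive for 7 of the 8 and negative for 1, Sepsecs. Secisbp2, which binds the selenocysteine hairpin, was at 0.29 (limma adjusted p = 0.602) and Sars, which charges the transfer RNA with serine, at 0.30 (limma adjusted p = 0.642). Pstk, the kinase that acts before Sepsecs, was listed at 0.

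Of 25 glutathione and thioredoxin partners, 17 were tested and 0 were called by limma, edgeR or DESeq2, which call 1.8%, 1.73% and 3.35% of all genes, so that this count too is near the background. An unadjusted limma p under 0.05 was found for 3 of the 17, against 1485 of all 10987 genes tested. The median log2 difference of the 17 was 0.06. Groups did not overlap for 5 of the 17, against 19.1% of all genes tested, and nothing particular to the list is read from this count. Prdx4, the peroxiredoxin of the endoplasmic reticulum, had 34.9, 34.0 and 45.7 normalised reads in WT and 21.7, 15.5 and 18.1 in KO, a log2 difference of −1.01 ± 0.29 (limma adjusted p = 0.126). Prdx6, a peroxiredoxin that uses glutathione, had 4389, 3718 and 5868 in WT and 3096, 1500 and 3317 in KO, a difference of −0.88 ± 0.30 (limma adjusted p = 0.212). Sod1, the copper-zinc superoxide dismutase, had 74.5, 65.4 and 86.2 in WT and 57.4, 36.2 and 59.1 in KO, a difference of −0.58 ± 0.25 (limma adjusted p = 0.357).

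Each of these 3 genes had non-overlapping groups, which is likely for genes named for the smallest p in their list. In each, KO replicate 2 was lowest, as in Selenbp1. For Prdx4, however, the KO libraries were within a few reads of each other. Sod1 (r = 0.973, rank 18) and Prdx6 (r = 0.960, rank 29) were among the 100 genes most like Selenbp1 over the 6 libraries. None of the 3 passed the adjustment over all genes. Gpx5, Gpx6, Gpx8 and Txnip were listed at 0 in every library. For these genes, as for Dio3, Selenoh, Pstk, Gpx2 and the markers listed at 0, how the authors counted reads that fit several places or overlapping genes is not given in the sources here, so a listed 0 is not a measure of absence.

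**Figure D4:**
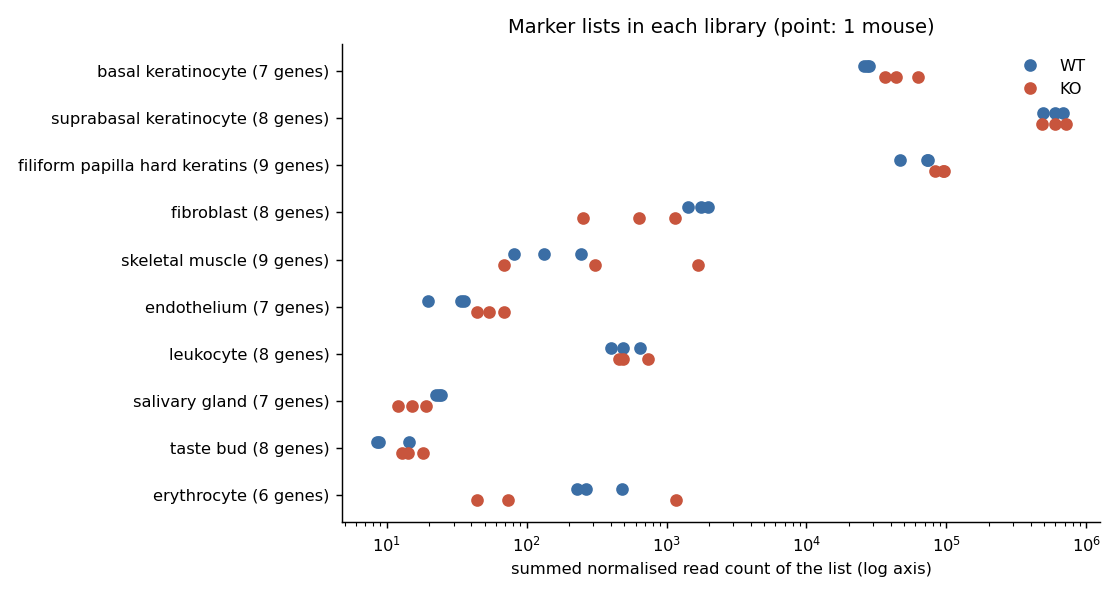
Summed normalised read count (log axis) of 10 lists of cell type markers, 1 point per mouse, WT blue and KO red. The sum of basal keratinocyte markers is higher in all KO than in all WT libraries (36389 to 63175 against 25654 to 27832). That of fibroblast markers is lower (252 to 1142 against 1428 to 1968), and that of suprabasal markers overlaps. The fibroblast sum is mostly Dcn except in KO replicate 1. Of the 4 fibroblast markers tested, 2 had a positive and 2 a negative log2 difference.

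Markers of other cells were low beside the keratins. Skeletal muscle markers summed to 81.1 to 244 in WT and 68.9 to 1686 in KO, highest in KO replicate 1, with Acta1 and Tnnc2 listed at 0. Endothelial markers summed to 19.6 to 35.8 and 43.8 to 69.3, and leukocyte markers to 398 to 646 and 459 to 735. The 6 erythrocyte markers summed to 229 to 479 in WT and 44.0 to 1171 in KO. Gpx3, Col1a1 and the sums of the muscle and erythrocyte markers were each highest in KO replicate 1. The part of these cells in the Gpx3 value was not tested. Salivary gland markers summed to 22.6 to 24.4 and 12.1 to 19.1, with 5 of 7 listed at 0. That sum was mostly Amy1, which was tested and not called (log2 difference −0.43, limma adjusted p = 0.633). Taste bud markers summed to 8.48 to 14.4 and 12.9 to 18.1, and each of them was too low to test.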

How the data were processed

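The authors deposited normalised read counts of 55421 genes in 6 libraries, a linear signal per the file headers. Their second deposited table lists the genes they called, each with a log2 fold change and its error, a score (the test statistic), a p-value and a q-value. The submitters' processing notes name DESeq2, featureCounts, STAR and FastQC. The versions, genome build, annotation and strand setting used are not given in the sources here. Every value was a whole multiple of 1 step per library within a tolerance (100%). That tolerance was 0.01 of a read, and wider for the largest counts, at a small fixed share of the value. Whole reads were therefore recovered for count tests: edgeR 4.0.16 called 190 genes and DESeq2 1.42.0 called 368.

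Groups come from the sample titles, each library is 1 mouse, and 0 value columns were unmatched. Genes with at least 10 in at least 3 libraries (10987 of the 21778 above 0 in a library) were tested on log2(value + 1) with limma 3.58.1 (intensity trend, two-sided, Benjamini-Hochberg adjustment at 0.05) (R 4.3.3). The log2(value + 1) scale understates differences of low genes. The script was tested on simulated data. With 3 mice against 3, each limma p-value sets the group difference against the spread between these mice. That spread is adjusted with information from all genes tested. Alternatives changed the pseudocount, filter, scaling, test, covariates or weights, or left out 1 library.

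Named genes are the 10, Ern1, and the 3 smallest p in each list on selenium, glutathione and thioredoxin. The 3 tested genes most like Selenbp1 are also named (mean of at least 50, without predicted genes or those with clone names or no symbol). Others were named after their values were seen. The members and lists were chosen with earlier results of these data known. Sequences and shared 3' windows (50 bases, in any other gene's transcript) come from GENCODE M21 on GRCm38, matched by gene identifier for all 10 genes. That annotation may not be the one the authors used.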

Additional observations from a re-analysis of the deposited data

How the results depend on the processing

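The number of genes called (198) was 368 with DESeq2, 82 when name style was a covariate, 590 when each library had its own weight, and 68 to 186 with 1 library left out (80 without WT replicate 2, 75, 112 and 68 without KO replicates 1, 2 and 3). Of the 10 genes, 0 were called with the name style as a covariate, and 0 to 1 with 1 library left out. Of the other selenoproteins, 1 (Selenok, lower) was called with library weights. The cause of these shifts was not tested, beyond the smaller number of samples in the fits with 1 library left out. The lists on selenocysteine and on redox partners had 0 calls throughout. Selenbp1 was called in 11 of 12 other settings, at −1.67 to −1.33. Without 1 library Selenof lay between −1.62 and −0.36. The sign changed in 4 settings for Selenow, 2 for Msrb1 and 1 for Gpx1, which are not called. With the replicate number as a block (replicate block), 178 genes and 1 of the 10 were called. Same-numbered mice had correlations of deviations of −0.25, 0.03 and 0.28, and not every library was closest to its own number. With 3 mice per group, these values cannot show whether same-numbered mice were paired. No scaling moved the median of all genes past 0.1 (−0.04 with equal totals). Selenbp2, Selenop, Gpx2, Gpx3 and Gpx4 had too few listed reads for a test; the cause was not tested.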
